A study of Mus musculus with 60 samples.

Results

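D/KO fibroblasts carrying the inducible reprogramming factors were followed here from day 2 to day 4 of doxycycline in the continued presence of VC, the combination of vitamin C (ascorbic acid, 50 µg/ml) and the GSK3 inhibitor CHIR99021 (3 µM). The comparison set the 3 libraries of day 4 plus VC against the 3 libraries of day 2 plus VC, which are 6 of the 60 libraries of the series, and the libraries were chosen by their labels and not by any measured value. The series asks how the first days of reprogramming change fibroblasts of a mouse model of DNA repair deficiency and premature aging. Polyadenylated RNA was sequenced with 150-base paired-end reads and counted per gene.

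Each compared group had the same cells and the same agents, apart from the number of days. The D/KO cells were tail tip fibroblasts of a male mouse of 8 weeks, on a C57BL6J and FVB hybrid background, with the genotype 4FJ_ERCC1_(d/-). One Ercc1 allele is truncated and the other is deleted, and the cells also hold 1 copy each of the polycistronic Col1a1-tetO-OKSM transgene (Oct4, Klf4, Sox2 and c-Myc) and of the ROSA26-M2-rtTA activator. Doxycycline was given at 2 µg/ml in both groups. For comparison, 6 libraries of the same D/KO cells at days 2 and 4 of doxycycline without VC were used, as were 6 libraries of WT cells at days 2 and 4 with VC. Levels at day 0 plus VC are those of 3 libraries of the D/KO cells given VC without doxycycline. The WT cells, 4FJ_(+/-)_OCT4-GFP, carry the 4FJ transgene and an Oct4 green fluorescent reporter and came from a 22-week-old female, so a difference between D/KO and WT cells can be one of genotype, sex, age or cell line, which cannot be told apart. RNA was extracted in triplicate, and the labels do not say that the 3 libraries of a group are separate cultures or animals, so p-values measure only the spread between these libraries. A culture kept without doxycycline to day 2 or day 4 was not part of the comparison, so time with the factors, time with VC and time in culture cannot be told apart. Transgene transcripts can be counted at the endogenous Pou5f1, Klf4, Sox2 and Myc genes.

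In the initiation phase of reprogramming, fibroblasts lose parts of the mesenchymal programme, such as collagens and TGFb targets, and begin to express epithelial genes, such as keratins and cadherin 1, in a mesenchymal-to-epithelial transition. The pluripotency network itself is activated much later. Vitamin C is a cofactor of the dioxygenases that remove methyl groups from histones and DNA and that hydroxylate collagen, and CHIR99021 stabilises beta-catenin and so activates Wnt signaling.

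Library totals were 17106202 to 17912692 counts in the 6 libraries, and values below are CPM, read counts relative to the library total, scaled by the trimmed mean of M values (TMM). Replicates within a group were more variable than counting noise, by 7.45 to 11.4 times at day 2 and 13.2 to 32.4 times at day 4, so no library was a copy of another. Ercc1 (ENSMUSG00000003549, chromosome 7, 19078703 to 19090449 in GRCm39) was read at 12, 13.3 and 13.6 CPM at day 2 and 8.04, 9.3 and 11.7 CPM at day 4, against means of 19.7 and 17.7 CPM in WT cells on the same days. The groups of D/KO libraries did not overlap, but the change of Ercc1 did not pass the test (log2 fold change -0.42 ± 0.17 SE, edgeR adjusted p = 0.0955), whereas it passed without replicate 3 of day 4 (log2 fold change -0.59). Exons of Ercc1 overlap Polr1g on the other strand. The 12 fibroblast markers were all detected, with a summed level of 73800 to 74100 CPM at day 2 and 37500 to 39100 CPM at day 4. The sum of the 9 epithelial markers went from 110 to 132 CPM to 481 to 594 CPM, with Krt18, Grhl2 and Esrp1 at 0 at day 2. Krt14 made up most of that sum, at means of 111 and 367 CPM. Of the 9, 4 had a mean of at least 1 CPM on each of the 2 days, and the lowest at day 4 had a mean of 0.0186 CPM. The sum of the 4 endothelial markers Pecam1, Cdh5, Kdr and Tek went from 186 to 211 CPM to 378 to 509 CPM, that of 7 pluripotency markers stayed at or below 1.0 CPM, and that of 6 immune markers was 1.85 to 2.19 CPM and then 1.0 to 1.67 CPM. In bulk RNA, fewer cells of a type and less RNA of that type per cell cannot be told apart, here and for every gene below.

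Between day 2 and day 4, 1228 of 15832 genes tested (7.76%) were higher and 1241 (7.84%) were lower, 15.6% in all, by edgeR's quasi-likelihood test at an adjusted p under 0.05. Genes that rose started lower and moved further: their median log2 fold change was 0.94 from a median of 11.1 CPM at day 2, against -0.65 from a median of 39.06 CPM for genes that fell. Of these, 582 genes (3.68%) rose and 306 (1.93%) fell by 1 or more on the log2 scale. The libraries of the 2 days did not overlap in 4720 genes (29.8%), which include 2369 of the called genes.

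**Figure D1:**
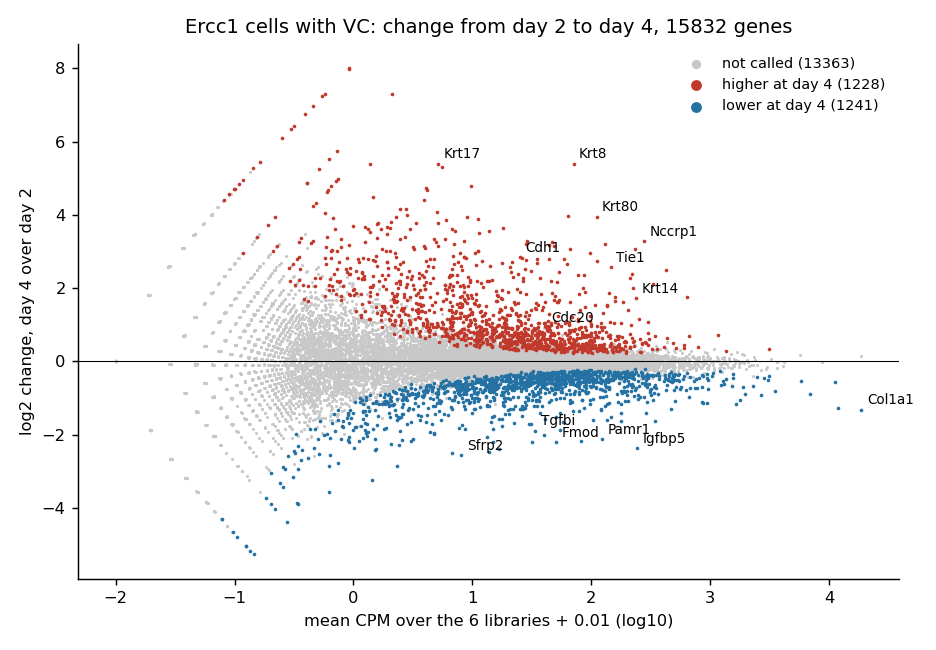
Log2 fold change from day 2 plus VC to day 4 plus VC in D/KO cells (y axis) against the log10 of the mean CPM over the 6 libraries plus 0.01 (x axis), 1 point per tested gene, with the 1228 called higher in red, the 1241 called lower in blue and some named genes labelled. Rises reach further than falls among genes of intermediate level, with Krt8 at 5.39 and Igfbp5 at -2.38, and the diagonal edges on the left are genes without counts on 1 of the 2 days.

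Of the 12 strongest rises among genes with a mean of at least 5 CPM, 4 were keratins (Krt8, Krt17, Krt80 and Krt90). Krt8, a keratin of simple epithelia (ENSMUSG00000049382, chromosome 15, 101905133 to 101912917, minus strand, GRCm39), was 3.13, 4.26 and 2.52 CPM in the 3 libraries of day 2 and 144, 153 and 119 CPM in those of day 4. The lowest library of day 4 was far above the highest of day 2, and the log2 fold change was 5.39 ± 0.31 (SE, edgeR adjusted p = 2.4e-14). Krt17, a keratin of hair follicles and wounded epidermis, was 0.637, 0.0592 and 0 CPM and then 9.46, 14.8 and 5.74 CPM (log2 5.39 ± 0.80, edgeR adjusted p = 1.25e-05). Its size rested on few reads at day 2, and the fitted log2 fold change was 8.12 without replicate 1 and 4.80 without replicate 3 of day 2. Krt80 (chromosome 15, 101245325 to 101268043, minus strand) was 11.5, 15.1 and 13.8 CPM at day 2 and 220, 221 and 184 CPM at day 4 (log2 3.95 ± 0.19, edgeR adjusted p = 4.62e-17), the smallest p of these 3 keratins. The other 9 of the 12 strongest rises were Spata31e2 (log2 5.31), Cyp2ab1 (4.79), Hpcal4 (4.08), Krt90 (3.96), Myo1g (3.94), Tnnt2 (3.85), Gpr50 (3.78), Cnfn (3.63) and Tgm3 (3.62). Cyp2ab1, a cytochrome P450 gene, was at 0 in the day 0 plus VC libraries, at 0.463, 1.07 and 0.504 CPM at day 2 and at 19.3, 20.4 and 16.7 CPM at day 4. Tnnt2, the cardiac troponin T, was at 0.504 to 1.07 CPM and then at 10.7 to 12.2 CPM. Spata31e2 was not called with DESeq2, which gave it a log2 fold change of 5.36.

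Secreted proteins of the matrix and of growth factor binding led the falls. Igfbp5, a binding protein of insulin-like growth factors (chromosome 1, 72897091 to 72914043, GRCm39), was 507, 373 and 339 CPM at day 2 and 98.9, 77.1 and 58.4 CPM at day 4 (log2 -2.38 ± 0.19 SE, edgeR adjusted p = 6.82e-12). Fmod, the collagen-binding proteoglycan fibromodulin, was 83.4, 81.8 and 85 CPM and then 15.3, 15.7 and 23.3 CPM (log2 -2.20 ± 0.17). Every library of day 4 was below every library of day 2 for these genes, as the rule for naming them required. Sfrp2, a secreted Wnt antagonist, was 14.7, 15.6 and 11.2 CPM and then 3.44, 1.62 and 1.95 CPM (log2 -2.56 ± 0.32, edgeR adjusted p = 1.57e-07). Others among the 12 strongest falls were Tenm3 (log2 -2.51), Chrdl1 (-2.48), Igfbp2 (-2.39), Sema3d (-2.20), Tnn (-2.17), Pamr1 (-2.13), Capn6 (-2.06) and Cpxm2 (-2.02). Chrdl1 is a secreted BMP antagonist, and Tnn is the matrix protein tenascin N. Igfbp5 was already lower at day 2 than its day 0 mean of 1705 CPM. Exons of Krt8, Krt80, Krt90, Sfrp2, Tenm3 and Cpxm2 overlap a gene on the other strand, and those of Capn6 a gene on the same strand, so their counts are uncertain to that extent.

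**Figure D2:**
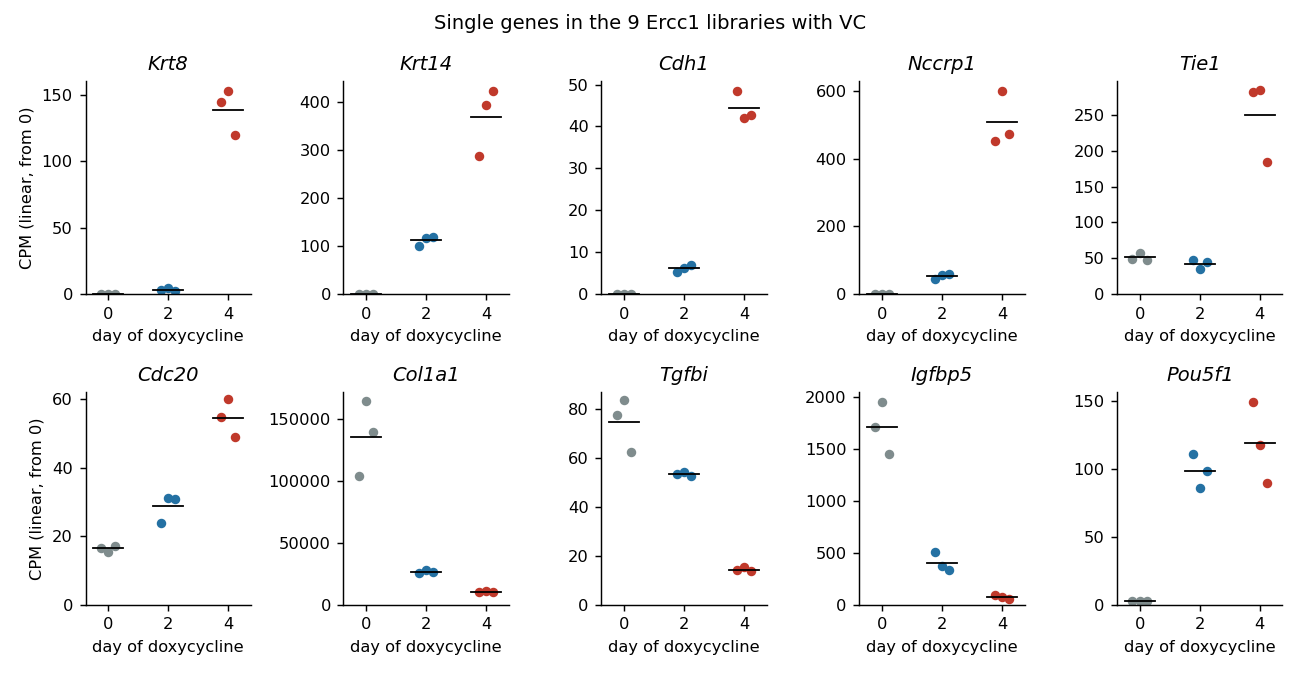
CPM on a linear axis from 0 in each library of D/KO cells with VC at days 0, 2 and 4 for 10 genes, with points for the 3 libraries and bars for their means. Krt8, Krt14, Cdh1 and Nccrp1 were near 0 at day 0 and highest at day 4, Col1a1 and Igfbp5 were lower on each later day, and Pou5f1 rose by day 2 with overlapping libraries at days 2 and 4.

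Epithelial structural genes rose together. Of the 16 listed keratins tested (26 in the list), 10 rose, beside 7.76% of all genes, and the list median was a log2 fold change of 2.06 beside 0.001 over all genes tested. The filter on low counts ran over all 36 libraries and kept genes expressed in as few as 3. Krt17, at means of 0.232 CPM at day 2 and 9.99 CPM at day 4, could thus be tested through its day 4 levels. This can raise the share of rises among tested members, here and in the lists below. The list leaves out Krt90, which rose as given above, and Krt83 and Krt222, which were tested and not called. The called members of the list came from both keratin clusters, 5 of the 7 listed and tested on chromosome 11 and 5 of the 9 on chromosome 15. Krt14, the keratin of basal epidermal cells, was not detected at day 0 plus VC, stood at 98.9, 117 and 118 CPM at day 2 and reached 286, 394 and 421 CPM at day 4 (log2 1.72 ± 0.20, edgeR adjusted p = 1.01e-07). Krt19 was 6.54, 12.4 and 7.44 CPM and then 72.4, 83.4 and 84.1 CPM (log2 3.19 ± 0.21), and Krt84 4.92 to 6.1 CPM and then 10.7 to 13.6 CPM (log2 1.17 ± 0.20). Krt18, the usual partner of Krt8, had 0 counts in all 3 libraries of day 2 and 0.211, 1.78 and 0.316 CPM at day 4, at least 13.4-fold higher against a floor of 3 counts over the day 2 group (0.0577 CPM). Krt18 thus lay far below its partner, and since it may have close copies in the genome its count is uncertain. The keratins summed to 166 to 203 CPM at day 2 and 837 to 984 CPM at day 4.

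Of 23 genes of epithelial junctions and their regulators, 10 passed the filter on low counts and 7 of these rose (median log2 1.98), beside 7.76% of all genes. Cdh1, the epithelial cadherin, was 5.33, 6.28 and 6.88 CPM at day 2 and 48.4, 42 and 42.7 CPM at day 4 (log2 2.85 ± 0.24, edgeR adjusted p = 2.85e-10), after a mean of 0.0432 CPM at day 0 plus VC. F11r, a tight junction adhesion molecule, was 21.6 to 23.1 CPM and then 71.3 to 82.3 CPM (log2 1.79 ± 0.17). Lad1, a basement membrane anchor, went from 3.08 to 4.76 CPM to 22 to 26.1 CPM (log2 2.60 ± 0.27), and Spint2, an inhibitor of membrane serine proteases, from 3.01 to 3.81 CPM to 14.4 to 17.6 CPM (log2 2.17 ± 0.29). Epcam, which like most of the other 13 members was too low to test, had means of 0.0197 and 0.575 CPM.

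Desmosomes join epithelial cells through plakins and plakophilins, and 5 of the 6 members tested rose (13 in the list, median log2 1.03), beside 7.76% of all genes. Perp, a desmosomal membrane protein, was 24.3, 31.7 and 20 CPM and then 118, 150 and 123 CPM (log2 2.36 ± 0.22, edgeR adjusted p = 3.31e-10). Pkp1, a plakophilin, was 64.8 to 87.9 CPM and then 162 to 191 CPM (log2 1.31 ± 0.19), and Jup, the plakoglobin shared with adherens junctions, 327 to 359 CPM and then 446 to 589 CPM (log2 0.64 ± 0.13). Every library of day 4 was above every library of day 2 for these 3 genes.

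Of 12 tested genes listed with the cornified envelope, the protein shell of terminally differentiated keratinocytes, 7 rose (35 in the list, median log2 1.63), beside 7.76% of all genes. Nccrp1, an F-box protein of stratified epithelium, was the most abundant of those with the smallest p, at 43.4, 55.7 and 58.5 CPM and then 453, 599 and 472 CPM (log2 3.27 ± 0.22, edgeR adjusted p = 2.5e-12). Tgm1, the transglutaminase that cross-links the envelope, went from 2.2 to 2.57 CPM to 15.5 to 21.1 CPM (log2 2.95 ± 0.23), Cnfn from 1.97 to 3.26 CPM to 23.6 to 41.3 CPM (log2 3.63 ± 0.39) and Slurp1 from 84.5 to 95.6 CPM to 254 to 444 CPM (log2 2.01 ± 0.16). Nccrp1 and Slurp1 together made up most of the list's summed level at day 4 (814 to 1090 CPM). The envelope's late structural proteins were at the limit of detection, with Loricrin at means of 0.0972 and 0.213 CPM and Ivl (involucrin) at 0 and 0.0527 CPM. Among epithelial transcription factors the picture was mixed: 3 of the 9 tested rose and Klf5 fell, beside 7.76% and 7.84% of all genes, but the count of rises was 1 without replicate 2 or 3 of day 2 or replicate 1 or 2 of day 4, and the call of Klf5 was lost without replicate 2 of day 4. Esrp2, an epithelial splicing factor, was the member that kept its call, at 0.984, 1.42 and 0.951 CPM and then 3.91, 4.18 and 2.26 CPM (log2 1.62 ± 0.34, edgeR adjusted p = 0.000568). Trp63, the master regulator of stratified epithelium, was 1.85 to 3.79 CPM and then 0.952 to 2.37 CPM, with overlapping libraries (log2 -0.69 ± 0.38, edgeR adjusted p = 0.266).

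**Figure D3:**
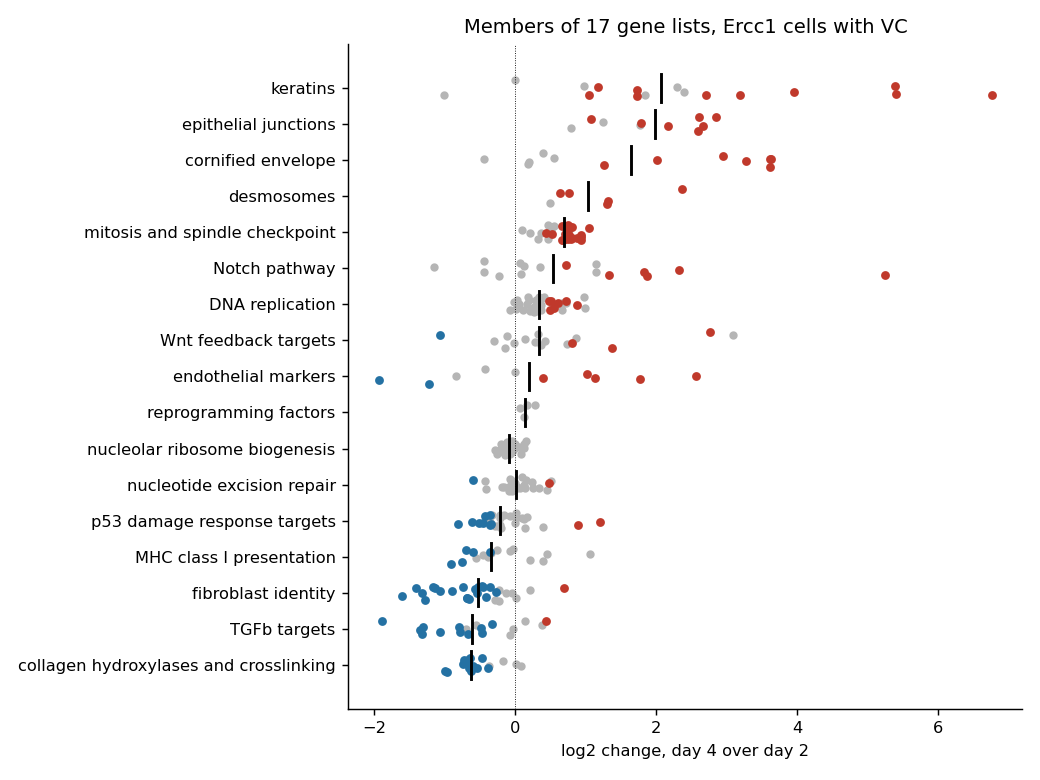
Log2 fold change from day 2 plus VC to day 4 plus VC in D/KO cells for each tested member of selected gene lists, with members that rose in red, those that fell in blue, those not called in grey and list medians as bars. Keratins, epithelial junctions, desmosomes and cornified envelope genes lie mostly to the right with medians of 2.06, 1.98, 1.03 and 1.63, and collagen cross-linking genes, TGFb targets and fibroblast identity genes to the left with medians of -0.63, -0.62 and -0.54. Krt18, at 6.76, is a fitted value against libraries at 0.

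Fibroblast identity genes fell over the same 2 days. Of 28 tested, 20 fell and 1 rose (median log2 -0.54), beside 7.84% and 7.76% of all genes, and their summed level went from 102000 to 103000 CPM at day 2 to 56700 to 58900 CPM at day 4. Col1a1, the main chain of type I collagen (chromosome 11, 94827050 to 94843868, GRCm39), was 25810, 27868 and 26750 CPM and then 10665, 11215 and 10194 CPM (log2 -1.33 ± 0.16, edgeR adjusted p = 8.91e-08), after a mean of 135930 CPM at day 0 plus VC. Its partner Col1a2 was 16235 to 17346 CPM and then 6919 to 6987 CPM (log2 -1.28 ± 0.14). The matricellular protein periostin (Postn, log2 -1.41 ± 0.19), dermatopontin (Dpt, -1.61 ± 0.23), lumican (Lum, -1.15 ± 0.13) and Col5a1 (-1.16 ± 0.15) fell to a like degree. Fap, the fibroblast activation protease, was the member that rose, from 9.78, 6.22 and 9.01 CPM to 16, 9.69 and 14.8 CPM, with 1 library of day 4 below the highest of day 2 (log2 0.70 ± 0.17, edgeR adjusted p = 0.00365), and its call was lost without replicate 2 of day 2. Thy1, the surface marker used to follow loss of fibroblast identity, had a mean of 368 CPM at day 0 plus VC and was at 865, 868 and 919 CPM and then 555, 672 and 681 CPM (log2 -0.47 ± 0.12, edgeR adjusted p = 0.00514), and its call was lost without replicate 1 of day 4 (log2 -0.39). Every day 4 library of Thy1 was still above every day 0 library. Of 15 transcription factors and cadherins of the epithelial-to-mesenchymal transition, beside 7.84% of all genes, Tbx15 (log2 -0.59 ± 0.11), Prrx2 (-0.56 ± 0.12) and Cdh11 (-0.35 ± 0.10) fell, the last not without replicate 1 of day 2 or replicate 2 of day 4, whereas Snai2 was 35.2 to 43.3 CPM and then 40.3 to 47.4 CPM (edgeR adjusted p = 0.382).

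TGFb drives the myofibroblast programme, and 11 of its 18 listed targets fell (1 rose, median log2 -0.62), beside 7.84% of all genes lower and 7.76% higher. Tgfbi, a matrix protein named for its induction by TGFb (chromosome 13, 56757336 to 56787375, GRCm39), was 53.3, 54.1 and 52.6 CPM and then 14.1, 15.3 and 13.7 CPM (log2 -1.89 ± 0.10, edgeR adjusted p = 1.65e-15). The spread within each day was under 2 CPM for Tgfbi. Acta2, smooth muscle actin, was 50.5, 74.1 and 62.1 CPM and then 28.2, 30.8 and 30.1 CPM (log2 -1.07 ± 0.17), and Myl9, a myosin light chain, 13.8 to 15.8 CPM and then 5.5 to 6.95 CPM (log2 -1.32 ± 0.19). Ccn2 (log2 -1.32 ± 0.18), Thbs1 (-0.80 ± 0.14) and Ltbp2 (-0.79 ± 0.14) fell as well, each with exons that overlap a gene on the other strand. The single rise, Bhlhe40, was not called without any 1 of 5 libraries.

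Enzymes that hydroxylate and cross-link collagen, some of which use ascorbic acid as cofactor, formed a list of 17 of which 13 fell (median log2 -0.63), beside 7.84% of all genes. Without VC 13 of the 17 fell as well (median log2 -0.51), beside 5.07% of all genes. In the test of the difference between the arms 0 of the 17 were called. P4ha1, the catalytic subunit of prolyl 4-hydroxylase, was 503, 521 and 568 CPM and then 288, 320 and 404 CPM (log2 -0.65 ± 0.09, edgeR adjusted p = 1.02e-06). P4ha3 was 23.4 to 31.1 CPM and then 11.8 to 15.6 CPM (log2 -1.01 ± 0.14), and the lysyl oxidases Lox (log2 -0.74 ± 0.12) and Loxl1 (-0.67 ± 0.10) fell from 1110 to 1305 CPM and from 238 to 264 CPM. Of 13 matrix metalloproteinases and their inhibitors, 6 fell, 3 of them without replicate 2 of day 4, and Mmp3 rose, beside 7.84% and 7.76% of all genes. Mmp3, stromelysin 1, was 80.1, 93.1 and 101 CPM and then 266, 248 and 330 CPM (log2 1.62 ± 0.23, edgeR adjusted p = 2.28e-06), while Mmp2 went from 1003 to 1082 CPM to 565 to 730 CPM (log2 -0.69 ± 0.12).

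Mitotic genes rose at day 4. Of 36 genes of mitosis and the spindle checkpoint, 22 rose (median log2 0.69), beside 7.76% of all genes, and all 36 had a positive log2 fold change. Cdc20, the activator of the anaphase-promoting complex, was 23.9, 31.2 and 30.9 CPM and then 54.9, 60 and 48.9 CPM (log2 0.93 ± 0.14, edgeR adjusted p = 3.5e-06). Cdc25b, the phosphatase that starts mitotic entry, was 23.4 to 23.5 CPM and then 41.6 to 52.2 CPM (log2 1.05 ± 0.14), and Top2a, which untangles sister chromatids, 70.4 to 88 CPM and then 114 to 175 CPM (log2 0.80 ± 0.14). The groups did not overlap for these 3 genes, and replicate 1 was the high library of Top2a at day 4. Ccna2 (log2 0.71 ± 0.14), Prc1 (0.79 ± 0.16), Ube2c (0.78 ± 0.16) and Plk1 (0.66 ± 0.17, edgeR adjusted p = 0.00436), chosen for its promoter after its values were seen, rose likewise. The summed level of the list was 646 to 719 CPM at day 2 and 996 to 1200 CPM at day 4, and it was 416 to 450 CPM at day 0 plus VC.

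Promoters of genes that peak in mitosis are known to carry CCAAT boxes and a cell cycle homology region (CHR), and 3 of them are printed to show these letters in members that rose. The windows run from 250 bases before to 50 bases after the transcription start in RefSeq's annotation of GRCm38.p6, a build other than the GRCm39 of the counts, and capitals mark CCAAT or its complement ATTGG, and the CHR as TTTGAA or TTCGAA or their complements. They are read 5′ to 3′ on the gene's strand: Cdc20 at chr4:118437294-118437593 on the minus strand, Plk1 at chr7:122159185-122159484 on the plus strand and Top2a at chr11:99024140-99024439 on the minus strand.
Cdc20: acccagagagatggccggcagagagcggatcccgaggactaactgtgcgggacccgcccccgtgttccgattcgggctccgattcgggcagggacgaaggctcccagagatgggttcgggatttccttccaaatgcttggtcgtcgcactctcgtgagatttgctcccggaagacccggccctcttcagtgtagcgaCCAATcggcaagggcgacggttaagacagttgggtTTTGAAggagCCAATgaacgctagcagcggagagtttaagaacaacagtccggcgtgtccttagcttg
Plk1: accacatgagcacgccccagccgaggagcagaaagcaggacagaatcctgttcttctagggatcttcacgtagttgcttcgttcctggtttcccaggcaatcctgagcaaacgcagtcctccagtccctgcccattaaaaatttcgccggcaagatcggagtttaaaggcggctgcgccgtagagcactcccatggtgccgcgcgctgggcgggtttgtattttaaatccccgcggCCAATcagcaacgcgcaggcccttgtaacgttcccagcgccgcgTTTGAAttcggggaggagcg
Top2a: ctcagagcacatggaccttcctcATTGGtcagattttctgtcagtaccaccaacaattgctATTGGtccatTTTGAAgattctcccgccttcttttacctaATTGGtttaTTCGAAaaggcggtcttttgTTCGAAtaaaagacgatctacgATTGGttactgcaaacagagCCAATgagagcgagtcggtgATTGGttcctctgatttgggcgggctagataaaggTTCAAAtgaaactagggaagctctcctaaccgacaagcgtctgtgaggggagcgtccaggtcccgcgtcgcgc
The Cdc20 window holds 2 CCAAT boxes and 1 CHR, that of Plk1 1 and 1, and that of Top2a 6 and 4.

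Over 32851 windows of 27025 genes, 37.4% held a CCAAT box on either strand, 19.2% a CHR and 7.52% both. Windows were found for 29 of the 36 mitotic genes, and of their 30 windows 76.7% held a CCAAT box, 76.7% a CHR and 66.7% both. Both motifs stood in 78.9% of the 19 windows of members that rose and in 45.5% of the 11 windows of members that were not called. The E2F motif, searched as TTTCCCGC and TTTGGCGC on both strands, was in 29.7% of the 37 windows of the DNA replication list and in 1.56% of all windows. These are matches of letters and not measured sites.

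Genes of DNA replication were a separate list. Of 39 tested, 7 rose (median log2 0.33), beside 7.76% of all genes, and 3 rose without replicate 1 of day 2, a share near that of all genes. Rrm1, a subunit of ribonucleotide reductase, was 150, 155 and 166 CPM and then 239, 235 and 217 CPM (log2 0.55 ± 0.09, edgeR adjusted p = 1.79e-05), and Uhrf1, which brings Dnmt1 to replicating DNA, 17.2 to 20.9 CPM and then 29 to 38.7 CPM (log2 0.88 ± 0.15). The licensing factor Mcm5 was 26.7, 30.7 and 35.3 CPM and then 47.3, 50.9 and 43.2 CPM (log2 0.61 ± 0.16, edgeR adjusted p = 0.00598), a call lost without replicate 1 of day 2. Of 7 inhibitors of cyclin-dependent kinases, Cdkn2c rose (log2 0.40 ± 0.14, edgeR adjusted p = 0.0493), a call lost without any 1 of 5 libraries. Cdkn1a (p21) was 794 to 860 CPM and then 622 to 767 CPM (log2 -0.22 ± 0.10, edgeR adjusted p = 0.133), and Cdkn2a 185 to 225 CPM and then 128 to 190 CPM (log2 -0.32 ± 0.15, edgeR adjusted p = 0.157).

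The same genes were compared in the other arms. In D/KO cells without VC, where 712 genes (4.5%) rose and 803 (5.07%) fell (9.57% in all) between the same days, 16 of the 36 mitotic genes fell and 1 rose (median log2 -0.57), and in WT cells with VC, where 1575 genes (9.95%) rose and 1601 (10.1%) fell (20.1% in all), 1 rose (median log2 -0.04). The change with VC exceeded the change without VC in 26 of the 36, tested as a difference of the 2 changes in the same fit, in which 3.25% of all genes were higher (6.16% in either direction), and it exceeded the WT change in 9 of the 36, against 4.28% of all genes. Cdc20 had means of 25.5 and 19.6 CPM without VC, a change that did not pass the test (edgeR adjusted p = 0.0862), and the difference from the change with VC was 1.31 (log2, edgeR adjusted p = 1.75e-05). Top2a was 60.5 CPM and then 43.9 CPM without VC (log2 -0.46, edgeR adjusted p = 0.0359), a difference of 1.27 (edgeR adjusted p = 5.14e-05). The summed level of the 4 endothelial markers was 186 to 211 CPM and then 378 to 509 CPM with VC and 423 to 490 CPM and then 302 to 327 CPM without it, and its part in the mitotic values was not tested.

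**Figure D4:**
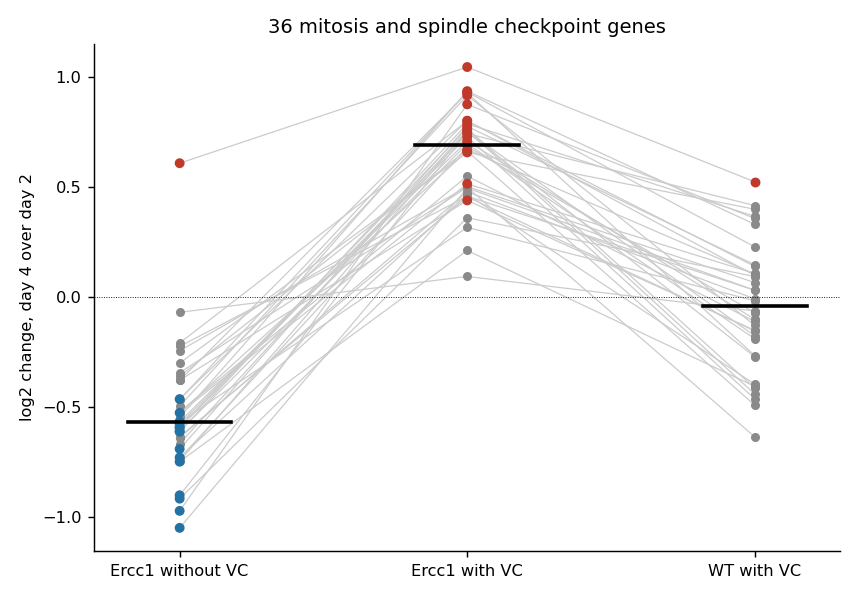
Log2 fold change from day 2 to day 4 for each of the 36 mitotic and spindle checkpoint genes in 3 comparisons, with bars for the medians. D/KO cells with VC lie above 0 with a median of 0.69, D/KO cells without VC mostly below 0 with a median of -0.57, and WT cells with VC around a median of -0.04.

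Of 10 listed endothelial markers, 5 rose and 2 fell (median log2 0.20), beside 7.76% and 7.84% of all genes. Tie1, an endothelial receptor tyrosine kinase (chromosome 4, 118328388 to 118347258, minus strand, GRCm39), was 47.1, 35.3 and 44.3 CPM at day 2 and 282, 285 and 184 CPM at day 4 (log2 2.57 ± 0.17, edgeR adjusted p = 1.1e-12). Pecam1 (CD31) was 77.1, 65.7 and 75.2 CPM and then 289, 242 and 211 CPM (log2 1.77 ± 0.14, edgeR adjusted p = 7.25e-12). Both were above their day 0 means of 51.1 and 72.9 CPM by day 4. Cdh5, the vascular cadherin, was 31.1 to 38.2 CPM and then 61 to 79.1 CPM (log2 1.01 ± 0.18), which is below its day 0 mean of 103 CPM, and Kdr, the receptor of vascular endothelial growth factor, 4.68 to 7.35 CPM and then 10.8 to 16.4 CPM (log2 1.13 ± 0.25). Tek, the angiopoietin receptor, was 82.5 to 88.1 CPM and then 94.8 to 125 CPM (log2 0.40 ± 0.10, edgeR adjusted p = 0.00406), a call lost without replicate 1 of day 4. The members that fell were Emcn (endomucin), from 11.1, 12.1 and 13 CPM to 4.65, 5.46 and 5.27 CPM (log2 -1.23 ± 0.21), and Lyve1, a lymphatic marker (log2 -1.94 ± 0.45, edgeR adjusted p = 0.0021).

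Without VC, 7 of the 10 endothelial markers fell (median log2 -1.09, where 5.07% of all genes fell), and the changes of 6 differed between the arms, beside 6.16% of all genes. The log2 difference was 2.99 for Tie1 (edgeR adjusted p = 2.36e-10), and Pecam1 differed by 2.29 (2.49e-10), Cdh5 by 2.36 (3.45e-08) and Kdr by 2.14 (6.17e-05). In WT cells with VC, Tie1 and Kdr had 0 counts on both days and Pecam1 means of 0.12 and 0.0373 CPM, Cdh5 was near 0, whereas Tek had means of 97.7 and 106 CPM. At days 2 and 4 WT cells thus held Tek with at most traces of the other markers named here. The 10 listed markers summed to 96.4 to 104 CPM in WT cells at day 2. In WT cells given VC without doxycycline (day 0) that sum was 6.7 to 8.59 CPM, so Tek was low there.

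**Figure D5:**
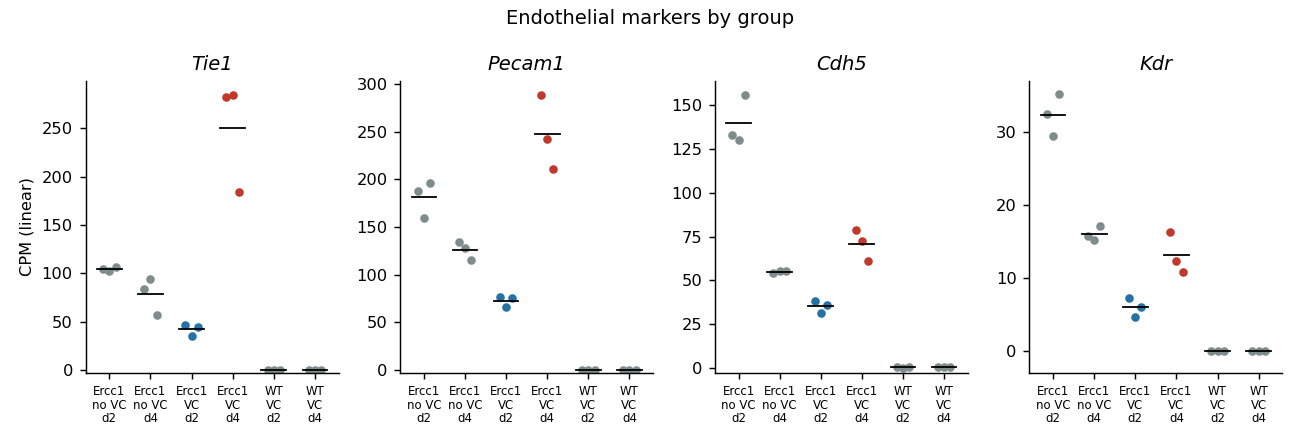
CPM of Tie1, Pecam1, Cdh5 and Kdr in each library at days 2 and 4 for D/KO cells with VC, D/KO cells without VC and WT cells with VC, with bars for the means. All 4 rose with VC in D/KO cells, were lower at day 4 in the mean without VC, and were at or near 0 in WT cells.

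The Notch pathway signals between neighbouring cells through membrane-bound ligands and receptors. Of 16 of its genes tested, 6 rose and 10 were not called (median log2 0.53), beside 7.76% of all genes higher. Without VC 1 rose and 5 fell (median log2 -0.42), beside 4.5% and 5.07% of all genes, and 7 changes were higher with VC in the test of the difference, beside 3.25%. Notch4, a receptor typical of endothelium (chromosome 17, 34783242 to 34807477, GRCm39), was 20.4, 19.5 and 19.9 CPM and then 85.1, 81.1 and 52.4 CPM (log2 1.87 ± 0.18, edgeR adjusted p = 4.38e-10), the ligand Jag2 6.88 to 7.64 CPM and then 33.2 to 41.1 CPM (log2 2.31 ± 0.31), and Notch1 25.3 to 27.4 CPM and then 38.4 to 48.4 CPM (log2 0.72 ± 0.16). Replicate 3 of day 4 was the lowest of its group for Notch4, as it was for Tie1, Pecam1 and Kdr. Dll1, another ligand, was 0.592 to 1.45 CPM and then 1.95 to 2.8 CPM (log2 1.33 ± 0.36), a call lost without replicate 2 or 3 of day 2 or replicate 1 of day 4. Sox7, a transcription factor of endoderm and endothelium, was 2.08, 2.37 and 2.13 CPM and then 17.5, 17.9 and 10.8 CPM (log2 2.81 ± 0.30, edgeR adjusted p = 7.69e-09), and Gata2, a factor of blood and endothelium, 14.5, 15.7 and 14.3 CPM and then 108, 109 and 92.1 CPM (log2 2.79 ± 0.17, edgeR adjusted p = 1.1e-14). The part of endothelial RNA in these 6 values was not tested.

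The reprogramming factors themselves showed no called change. None of the 4 passed edgeR's test, none had an unadjusted p under 0.05, and DESeq2 called 0 (median log2 0.14). Pou5f1 was 111, 86.2 and 98.6 CPM and then 150, 118 and 89.7 CPM (log2 0.27 ± 0.25, edgeR adjusted p = 0.554), and its mean at day 0 plus VC was 2.72 CPM. Sox2 was 118 to 146 CPM and then 125 to 178 CPM (log2 0.12 ± 0.21), Klf4 255 to 305 CPM and then 277 to 374 CPM (log2 0.17 ± 0.18) and Myc 316 to 338 CPM and then 308 to 376 CPM (log2 0.06 ± 0.11), and without replicate 1 of day 4 the log2 fold changes of Sox2 and Myc were -0.044 and -0.018. In WT cells with VC all 4 rose over the same days (median log2 0.87), beside 9.95% of all genes there. Pou5f1 went from a mean of 49 to 96.6 CPM there and Myc from 164 to 260 CPM, and the difference between the changes passed the test for Myc (-0.61, edgeR adjusted p = 0.00784) and not for Pou5f1 (-0.71, edgeR adjusted p = 0.219), Sox2 (-0.90, edgeR adjusted p = 0.0512) or Klf4 (-0.60, edgeR adjusted p = 0.142).

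Of 26 genes listed for the pluripotency network, 9 could be tested. Of these, 3 rose and 2 fell (median log2 0.59), beside 7.76% and 7.84% of all genes. Nanog was at means of 0.233 and 0.126 CPM, and the 7 pluripotency markers given above stayed at or below 1.0 CPM in sum. L1td1, an RNA-binding protein of pluripotent cells, was 54.1, 72.3 and 56.7 CPM and then 262, 228 and 178 CPM (log2 1.87 ± 0.18, edgeR adjusted p = 6.04e-09), after 0 at day 0 plus VC. It rose without VC and in WT cells as well (log2 1.47 and 1.35). Fgfbp1, a binding protein of fibroblast growth factors, was 0.984 to 2.55 CPM and then 9.53 to 13.6 CPM (log2 2.51 ± 0.41). Gdf3 was 0.405, 1.01 and 2.24 CPM and then 3.44, 4.07 and 4.85 CPM (log2 1.75 ± 0.59, edgeR adjusted p = 0.0406), a call that was lost without any 1 of 5 libraries. Alpl and Dnmt3l fell, each from means under 2 CPM, and the list had 0 or 1 falls without any 1 library.

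Feedback targets of Wnt were called in both directions. Of 16 tested, 3 rose and Lgr5 fell (median log2 0.34, or 0.30 with a gene at 0 taken at its bound), beside 7.76% of all genes higher and 7.84% lower, and 1 rose without replicate 2 of day 2. Axin2, the most widely used target, was 7.87, 9.06 and 13.5 CPM and then 13, 10.3 and 17.4 CPM (log2 0.42 ± 0.22, edgeR adjusted p = 0.239), and Lef1 0.414 to 0.926 CPM and then 0.529 to 1.17 CPM. Notum, a secreted Wnt deacylase, was 0, 0.533 and 0.56 CPM and then 2.06, 2.9 and 2.58 CPM (log2 2.76 ± 0.71, edgeR adjusted p = 0.00525), and Lgr5 9.9, 10.4 and 7.28 CPM and then 5.76, 3.73 and 3.58 CPM (log2 -1.07 ± 0.26, edgeR adjusted p = 0.00309). Of 11 BMP targets, 2 rose (median log2 0.00), beside 7.76% of all genes. Without VC 6 of the 11 rose (median log2 0.71), beside 4.5% of all genes. In the test of the difference 2 of the 11 changes were lower with VC, beside 2.91%. With VC the rises were Id2, from 26.3 to 28.4 CPM to 46.3 to 70.4 CPM (log2 1.09 ± 0.18), and Id4, from 15.1 to 19.3 CPM to 33.6 to 36 CPM (log2 1.00 ± 0.19). Id3 overlapped between the days, at 115 to 188 CPM and then 121 to 154 CPM.

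DNA repair lists, which bear on the defect of these cells, had few calls. Of 26 genes of nucleotide excision repair, the pathway that needs Ercc1, 1 rose and 1 fell (median log2 0.01). Ercc5, the nuclease that cuts on the other side of the lesion, was the one that fell, from 53.4, 49.3 and 53.9 CPM to 39.5, 29.4 and 34.2 CPM (log2 -0.60 ± 0.14, edgeR adjusted p = 0.00202), and the rise was lost without replicate 1 or 2 of day 2 or replicate 1 of day 4, while 2 fell without replicate 3 of day 4. In homologous recombination and the Fanconi pathway, 3 of 36 rose and 1 fell (median log2 0.23), in end joining 3 of 17 rose, in base excision repair 2 of 21 and in mismatch repair 1 of 9, beside 7.76% of all genes. Exo1, a nuclease shared by recombination and mismatch repair, was 4.69, 3.08 and 4.37 CPM and then 9.52, 7.52 and 9.38 CPM (log2 1.12 ± 0.28, edgeR adjusted p = 0.00431). Without replicate 2 of day 2 the recombination count was 1, and without replicate 1 of day 4 that of end joining was 1 and that of base excision 0.

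Of 30 p53 targets of the damage response, 8 fell and 2 rose (median log2 -0.22), beside 7.84% and 7.76% of all genes, so the share of rises was near that of all genes, and 5 fell without replicate 2 of day 2 or replicate 1 of day 4. The death receptors Fas, from 20.2, 21.2 and 17 CPM to 9.94, 10.1 and 13 CPM (log2 -0.82 ± 0.14, edgeR adjusted p = 2.7e-05), and Tnfrsf10b, from 74.7 to 89 CPM to 47.8 to 55.3 CPM (log2 -0.62 ± 0.10), were lower, as was Zmat3, from 177 to 193 CPM to 130 to 137 CPM (log2 -0.46 ± 0.08). Tigar, a brake on glycolysis, rose from 9.84, 9.47 and 12.7 CPM to 24.1, 25.9 and 23.6 CPM (log2 1.20 ± 0.18, edgeR adjusted p = 3.36e-06).

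Lists of metabolism held calls in both directions, beside 15.6% of all genes called. Of 29 genes of glycolysis and hypoxia, 5 rose and 2 fell, with 2 rises without replicate 2 of day 4. Pfkp was 64.4 to 89.8 CPM and then 115 to 136 CPM (log2 0.78 ± 0.12), and the glucose transporter Slc2a1 53.4 to 65.4 CPM and then 86.8 to 128 CPM (log2 0.80 ± 0.15). Of 22 ATF4 and serine synthesis genes, 2 rose and 2 fell, whereas without VC 13 fell (median log2 -0.68), beside 5.07% of all genes, and 11 changes differed between the arms, beside 6.16%. Psat1 showed the contrast, at 112, 150 and 143 CPM and then 184, 216 and 212 CPM with VC (log2 0.60 ± 0.14, edgeR adjusted p = 0.00192) and at means of 105 and 41 CPM without it (log2 -1.36). Phgdh, the first enzyme of serine synthesis, fell in both, by 0.63 with VC and by 1.47 without it on the log2 scale. Among 24 genes of cholesterol synthesis 2 fell, against 16 in WT cells with VC, beside 10.1% of all genes there, and among 32 of nucleolar ribosome biogenesis edgeR and DESeq2 each called 0, with 1 at an unadjusted p under 0.05, against 10 that rose in WT cells, beside 9.95%. Tested as a difference from the WT change, 10 of the 24 cholesterol genes were higher, beside 4.28% of all genes. By the same test 9 of the 32 ribosome biogenesis genes were lower, beside 4.55%.

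Lists of immunity held calls in both directions, and differences between the lists were not tested. Of 20 tested genes of the senescence-associated secretory phenotype 6 fell and 1 rose, and of 16 genes of MHC class I presentation 5 fell, 3 of them without replicate 2 of day 2 or replicate 1 of day 4. Of 17 complement genes tested 3 rose and 1 fell, and of 26 interferon-stimulated genes 1 rose, or 7 without a filter on low counts, beside 7.76% of all genes higher and 7.84% lower. Psmb10, an immunoproteasome subunit, was 20.4, 27.6 and 20.3 CPM and then 13.2, 12 and 11.2 CPM (log2 -0.91 ± 0.19, edgeR adjusted p = 0.000439). Immune cell RNA was low, with Tyrobp at 0.174, 0.296 and 0.056 CPM and then 0 in the 3 libraries of day 4, at least 3.26-fold lower against a floor of 3 counts over the group.

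Of 33 Hox genes, which encode position along the body axis, 4 rose and 3 fell (median log2 0.22), shares near the 7.76% and 7.84% of all genes, with 1 fall without replicate 1 of day 4 and 5 without replicate 3 of day 4. The neighbours Hoxd8 and Hoxd9 were 2.69 to 3.82 CPM and 2.14 to 3.25 CPM at day 2 and 10.7 to 15.3 CPM and 9.9 to 14.7 CPM at day 4 (log2 2.09 ± 0.29 and 2.18 ± 0.29, edgeR adjusted p = 1.3e-06 and 5.25e-07), and without VC they were 12.2 and 7.1 CPM at day 2 and 8.87 and 6.78 CPM at day 4. Hoxb13, a gene of the tail end of the body axis, fell from 25.5, 30.4 and 27.5 CPM to 15, 19.6 and 20.2 CPM (log2 -0.60 ± 0.13). Of 14 trophoblast, 12 neural and 7 Schwann cell markers listed, 3, 5 and 7 passed the filter on low counts. Of those tested, 1, 1 and 2 rose, beside 7.76% of all genes. Peg10, an imprinted gene of placenta, was 9.32, 8.7 and 10.9 CPM and then 62.3, 50.6 and 46.6 CPM (log2 2.46 ± 0.23, edgeR adjusted p = 3.83e-10), whereas it had means of 3.3 and 3.4 CPM without VC, a difference of 2.43 (edgeR adjusted p = 1.23e-05). Nes, the intermediate filament of neural progenitors and of new vessels, was 21.9 to 35.1 CPM and then 42.9 to 62.3 CPM (log2 1.03 ± 0.18). Among Schwann cell markers, of which 1 rose without replicate 3 of day 2 or replicate 1 or 2 of day 4, Mbp was 3.58 to 5.39 CPM and then 7.27 to 10.1 CPM (log2 1.01 ± 0.21), with Sox10 under 2 CPM in every library of both days.

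Whether VC altered the change from day 2 to day 4 was tested as the difference from the change without VC. It was higher for 514 genes (3.25%) and lower for 461 (2.91%), and of the 2469 genes called with VC 720 (29.16%) had a change that differed. The genes called in the 2 arms, which share no library, had 296 rises in common (24.1% of those with VC and 41.57% of those without) and 332 falls (26.75% and 41.34%), and 107 genes called in both moved in opposite directions. Avil, an actin-bundling protein (advillin), was 8.8, 11.2 and 13.4 CPM and then 72.1, 88.2 and 72.5 CPM with VC and fell from a mean of 33.6 to 8.53 CPM without it, a difference of 4.78 (edgeR adjusted p = 4.03e-16). Krt19 differed by 3.56 (edgeR adjusted p = 7.86e-11), since it was 12.3 CPM and then 9.51 CPM in the mean without VC. In the other direction, Penk (proenkephalin) fell from 47.1 to 77.1 CPM to 28.1 to 38.2 CPM with VC and rose from a mean of 27 to 127 CPM without it, a difference of -3.13 (edgeR adjusted p = 1.3e-09). Itgbl1 (difference -2.20), Sbspon (-2.55), Tnfrsf11b, the decoy receptor osteoprotegerin (-1.95), and Igfbp3 (-2.03) likewise fell with VC and rose without it, each called in both arms. Keratins divided by this test: 7 of the 16 listed and tested changed more with VC, among them Krt8 (difference 3.20, edgeR adjusted p = 8.12e-06), whereas Krt14 had a log2 fold change of 1.72 in each arm from means of 13.1 and 43.2 CPM without VC.

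Against WT cells with VC, the change was higher for 677 genes (4.28%) and lower for 721 (4.55%), and 729 (29.53%) of the called genes had a change that differed. Without replicate 2 of day 4 these counts were 449 and 479. The 2 cell lines had 226 rises in common (18.4% of those of D/KO cells and 14.35% of those of WT cells) and 480 falls (38.68% and 29.98%), so a larger share of each list was common among falls than among rises. The listed keratins in WT cells summed to 27.7 to 32.4 CPM at day 2 and 26.5 to 27.1 CPM at day 4. The log2 difference was 3.61 for Krt80 (edgeR adjusted p = 1.87e-08), and Krt14 differed by 2.16 (edgeR adjusted p = 2.32e-05) and Gata2 by 3.00 (edgeR adjusted p = 8.88e-11). Clu (clusterin) was 12.4, 11.8 and 14.4 CPM and then 66.3, 61.9 and 57.5 CPM in D/KO cells and 14.6 and 11.6 CPM in the mean in WT cells, a difference of 2.59 (edgeR adjusted p = 5.98e-11). Among the lower differences, Fhl1, a muscle LIM protein, fell from 24.4 to 27.7 CPM to 8.25 to 9.3 CPM in D/KO cells and rose from 17.1 to 28 CPM in the mean in WT cells (difference -2.29, edgeR adjusted p = 1.18e-11), and Tgfbi fell in both, by 1.89 and by 0.70 on the log2 scale (difference -1.20, edgeR adjusted p = 3.27e-07). Crym, a thyroid hormone binding protein, overlapped between the days in D/KO cells, at 67.4 to 93.7 CPM and then 59.2 to 69.9 CPM, and rose from 7.69 to 30.6 CPM in the mean in WT cells (difference -2.30). Of the 28 fibroblast identity genes, 20 fell in D/KO cells with VC, 11 without VC and 16 in WT cells with VC, beside 7.84%, 5.07% and 10.1% of all genes. Tested against the change without VC, 4 of the 28 were lower and 1 higher, beside 2.91% and 3.25% of all genes. Against the WT change 5 were lower and 1 higher, beside 4.55% and 4.28%.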

How the data were processed

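Per the labels and the methods, RNA of each group was extracted in triplicate and sequenced on a NovaSeq (150-base paired-end). The authors deposited raw counts per gene in a table of 36 libraries, made with FastQC, Trim Galore, HISAT2 on GRCm39 and featureCounts (Subread), and their own downstream tests used DESeq2. Versions, strand setting and treatment of multiply mapped reads are not given in the sources used here, so genes that overlap or have close copies are read as uncertain. Columns of no sample numbered 0, and the table of TGFb inhibitors was not used.

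Symbols, positions and overlaps came from GENCODE M39 (56236 of 56980 identifiers found). In R 4.3.3, edgeR 4.0.16 was run on the deposited counts: filterByExpr (minimum count 10, total 15) kept 15832 genes, TMM scaled the 36 libraries, and 1 quasi-likelihood fit with a coefficient per group gave the day 4 against day 2 contrast and its difference from D/KO cells without VC and from WT cells with VC, two-sided, with Benjamini-Hochberg adjustment over all genes (common biological coefficient of variation 0.132). Replicates varied by more than counting noise, and low counts limit the precision of genes near 1 CPM or below. The fit was tested on simulated counts with known changes.

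The comparison, the 47 lists and the rules were chosen with earlier results of these data known. Genes named are the 12 strongest rises and falls with an adjusted p under 0.05, a mean of at least 5 CPM and no overlap between days, up to 6 members per list by p (all of a list of 8 or fewer), the 5 smallest p per direction of each difference, and fixed checks. Plk1, Krt18, Fap, Dll1, Snai2, Tek, Ivl, Loricrin, Mbp and Bhlhe40 are named outside that rule or for a count, after their values were seen. Alternatives were DESeq2 1.42.0, its size factors, no filter or at least 10 counts in each library compared, fewer libraries in the fit, a log2 threshold of 1, and each library left out. Promoter windows are RefSeq's (GRCm38.p6). Some genes that met the rule are not reported here.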

Additional observations from a re-analysis of the deposited data

Results flagged for a closer look

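The difference between the change with VC and the change without VC was tested as a difference of the 2 changes in 1 edgeR fit and was called higher for 514 genes and lower for 461. The named genes with the smallest p were Avil (4.78 on the log2 scale), Krt19 (3.56), Tie1 (2.99), Notch4 (2.83) and Pecam1 (2.29) among the higher, and Penk (-3.13), Sbspon (-2.55), Itgbl1 (-2.20), Igfbp3 (-2.03) and Tnfrsf11b (-1.95) among the lower. Of the 36 mitotic genes, 26 were higher in this test, beside 3.25% of all genes.

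The same test against WT cells with VC called 677 genes higher and 721 lower. Its named genes were Krt80 (3.61), Krt19 (3.10), Gata2 (3.00), Clu (2.59) and Peli2 (1.62) among the higher, and Crym (-2.30), Fhl1 (-2.29), Tnfrsf11b (-1.45), Celf2 (-1.45) and Tgfbi (-1.20) among the lower. Groups of 3 libraries were too small for a formal search for single libraries that stand apart. In pairs, replicate 1 of day 4 plus VC varied from replicates 2 and 3 by 23.9 and 32.4 times counting noise. Replicates 2 and 3 varied from each other by 13.2 times.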

How the results depend on the processing

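No paired analysis was possible because the labels carry only running library numbers. The counts of 1228 genes higher and 1241 lower were 1361 and 1306 with DESeq2, 1256 and 1184 with its size factors, 1143 and 1199 without a filter, and 911 to 1124 and 953 to 1129 with 1 library left out. A log2 threshold of 1 gave 582 higher and 306 lower, 208 lower in the VC difference, and 340 higher and 358 lower in the cell line difference. With 1 library left out the VC difference gave 405 to 503 higher and 355 to 457 lower, and the cell line difference 449 to 732 and 479 to 817. The cause was not tested. With 1 library left out, the log2 fold change of Sox2 was -0.044 to 0.22 and that of Myc -0.018 to 0.13, negative without replicate 1 of day 4. Counts of gene lists moved by over 1.5 times in 154 of 1128 recomputed values, mostly in lists with few calls. Depth limits genes under about 1 CPM, such as Nanog and Epcam.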
